A study of Mus musculus with 188 samples.

Results

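Haploid mouse embryonic stem cells (mESCs) caught on either side of the middle of S phase were compared for the DNA that had replicated. A cell's progress was the share of its autosomal 50 kb bins with the replicated state in the binarized profiles. The 25 cells with 40% to under 60% of bins replicated are called the earlier cells and the 21 cells with 60% to under 75% the later cells. These 46 cells were drawn from 75 haploid cells with values, among 138 cells of both lines. Of the other haploid cells, 11 lay under 40% and 18 at 75% or more. The cells were chosen by the binarized states themselves, so a higher share replicated in the later cells follows from the choice, and every value is given as a description without a test.

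All 46 cells were labelled as S-phase cells of H129-2, a haploid mESC line of the 129 strain. Cells were grown without feeders in N2B27 medium with 2 kinase inhibitors (2i) and LIF, stained with DAPI, sorted as single nuclei by DNA content and amplified whole before sequencing. No drug, allele or treatment distinguished the earlier from the later cells. The labels give each haploid cell its own plate well and name no separate cultures, so cells are not replicates of a culture and the SD is the spread over cells. F121-9, a diploid hybrid of the 129 and Castaneus strains, served as a second set of cells that the choice did not use. Per the study's methods most cells were taken from the middle of S phase, and gates were widened towards early and late S phase for the haploid line alone. Cells with sparse reads or judged outliers had been taken out by the authors, so what remains is a selected set. Cells named in the labels without matched values were not analysed here. The values carry no read numbers, and the sequencing depth of a cell is therefore unknown.

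Replication starts at origins that fire in clusters, and forks then run outward until they meet forks from neighbouring clusters. Early domains tend to be rich in genes and G and C bases and to lie in open chromatin, whereas late domains are poor in both and often lie at the nuclear lamina. In the copy number profile of an S-phase cell, a run of bins at the higher level marks DNA that has been copied, and the ends of the run mark how far copying has spread.

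Progress averaged 53.3% ± 4.91 (SD, n = 25) in the earlier cells, with values from 41.04% to 59.6% and a median of 53.6%. It averaged 67.6% ± 4.26 (SD, n = 21) in the later cells and ran from 62.8% to 74.995% with a median of 66.2%. Next to the lower limit, well A6 had 38.7% and well A8 41.04% of bins replicated, and next to the upper limit well B4 had 74.995% and well D11 75.2%. At the middle limit the nearest cells were C3 with 59.6% and F12 with 62.8%, so no haploid cell lay within the interval between them. Those 2 cells had 547 and 504 replicated segments with median lengths of 1700 and 1775 kb.

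The later cells held fewer and longer replicated segments. A segment was a run of neighbouring autosomal bins with the replicated state, ended by an unreplicated bin, a bin without a state or the end of the chromosome. The earlier cells had 532 ± 39.03 replicated segments per cell (SD, n = 25), with a lowest count of 442, a median of 534 and a highest of 613. The later cells had 461 ± 34.4 (SD, n = 21), with a lowest count of 389, a median of 469 and a highest of 512. The ranges overlapped, and 6 of the 21 later cells fell below every earlier cell. Well C12 carried the lowest count among the earlier cells although its progress was 58.3%, and well D9 carried the highest at a progress of 56.3%.

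The median length of a replicated segment was 1475 ± 210 kb (SD, n = 25) in the earlier cells and 2125 ± 272 kb (SD, n = 21) in the later cells. It ran from 1050 to 2000 kb with a median of 1450 kb in the first set and from 1750 to 2550 kb with a median of 2100 kb in the second, and 11 later cells lay above every earlier cell. Long segments changed most. Segments over 5 Mb numbered 63.04 ± 14.4 per earlier cell and 101.8 ± 11.9 per later cell, and 20 of the 21 later cells exceeded every earlier cell. These long segments held 39.4% ± 6.92 of the replicated bins in the earlier cells and 57.3% ± 6.15 in the later cells. The longest segment of a cell averaged 17176 ± 2272 kb and 29155 ± 6983 kb. The length at which longer segments hold 50% of the replicated bins (N50) averaged 3878 ± 671 kb and 5929 ± 894 kb.

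**Figure D1:**
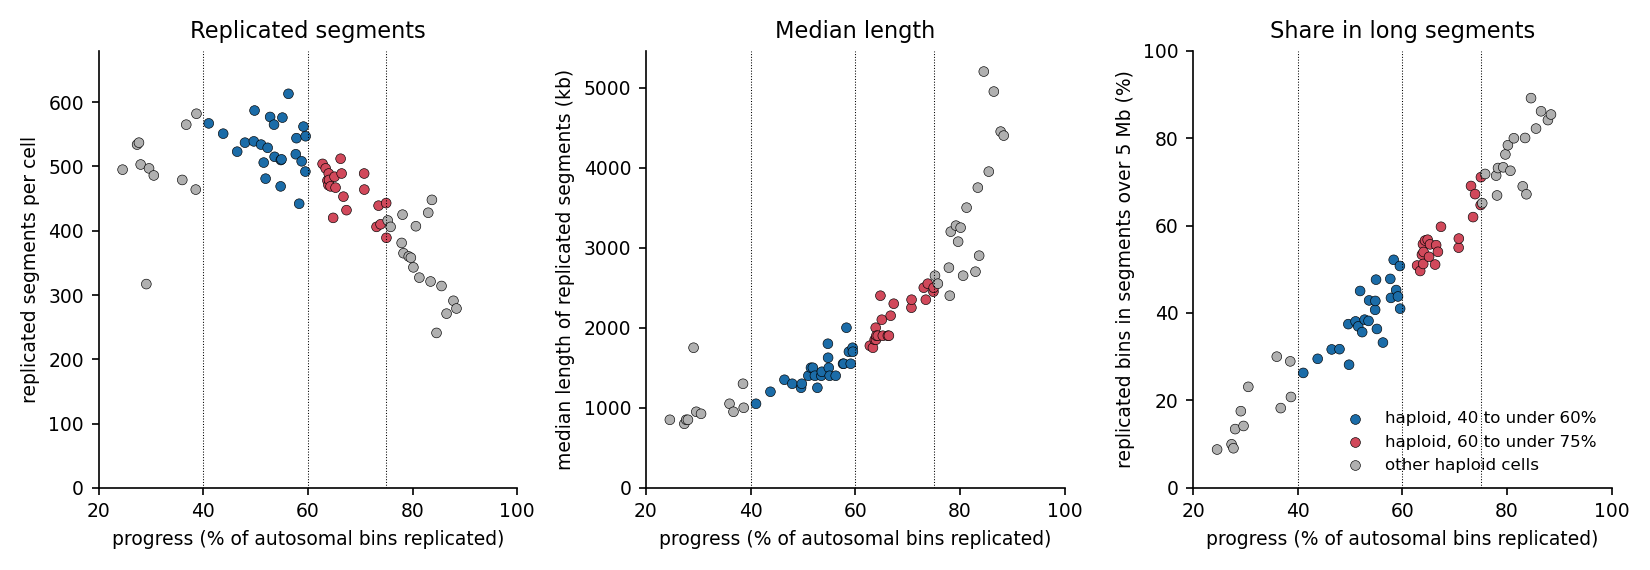
Number of replicated segments (left), their median length in kb (middle) and the share of replicated bins in segments over 5 Mb (right), each against progress through S phase in %. Each point is 1 of the 75 haploid cells, coloured by window, and dotted lines mark the limits of 40%, 60% and 75%. Later cells had 461 segments on average against 532 in earlier cells, and more of their replicated DNA lay in long segments.

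Within both windows segment length followed progress cell by cell, whereas segment number did so clearly only among the later cells. Median segment length rose with progress with Pearson's r = 0.80 and Spearman's rho = 0.82 over the 25 earlier cells, and with r = 0.86 and rho = 0.87 over the 21 later cells. Segment number had r = -0.24 and rho = -0.20 among the earlier cells and r = -0.69 and rho = -0.67 among the later cells. Progress and segment measures come from the same states of the same cell, so these correlations are given as a description.

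Unreplicated segments over 5 Mb became fewer, while the typical length of an unreplicated segment changed little. Unreplicated segments numbered 507 ± 44.2 per earlier cell and 408 ± 40.1 per later cell. Their median length was 1392 ± 115 kb and 1293 ± 98.5 kb, and all 21 later cells lay inside the range of the earlier cells. Unreplicated segments over 5 Mb went from 48 ± 12.3 per earlier cell, with a range of 24 to 75, to 24.6 ± 6.88 per later cell, with a range of 11 to 35. The N50 of the unreplicated DNA was 3406 ± 509 kb and 2690 ± 324 kb.

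The bins that carried the step were next counted over 45112 autosomal bins with a state in every cell. The share of cells replicated was higher in the later cells in 31035 bins (68.8%), exactly equal in 11860 (26.3%) and lower in 2217 (4.91%). The mean rise was 14.4 percentage points and the median rise was 8 points. A bin was called a gaining bin where the share was at least 50 points higher in the later cells, and 1557 bins met this, 3.45% of all bins. They were replicated in 24.8% of the earlier cells and 81.2% of the later cells on average. The bins nearest to this limit had rises of 50.5 points inside and 49.9 points outside. When the state was replaced by a smoothed score above 0, 513 bins met the limit. That score is centered in each cell, so its 0 is not a fixed copy number level. Within plate rows B, C and E, with fewer cells, 3520, 3790 and 8064 bins met the limit.

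No bin was unreplicated in every earlier cell and replicated in every later cell. Bins replicated in every cell made up 22.6% of bins among the earlier cells and 38.3% among the later cells. Bins replicated in no cell made up 14.1% and 6.47%. Such shares also depend on the number of cells and the width of a window, which differed. Already replicated bins, in at least 90% of the earlier cells, numbered 15260 (33.8%), and still unreplicated bins, in at most 10% of the later cells, numbered 6825 (15.1%). The former went from 98.2% to 99.4% and the latter from 1.47% to 3.92% of cells. Bins at 25% to under 50% of the earlier cells had the largest mean rise, 35.9 points, and reached 73.7% of the later cells. Those under 10% in the earlier cells rose by 11.4 points on average.

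**Figure D2:**
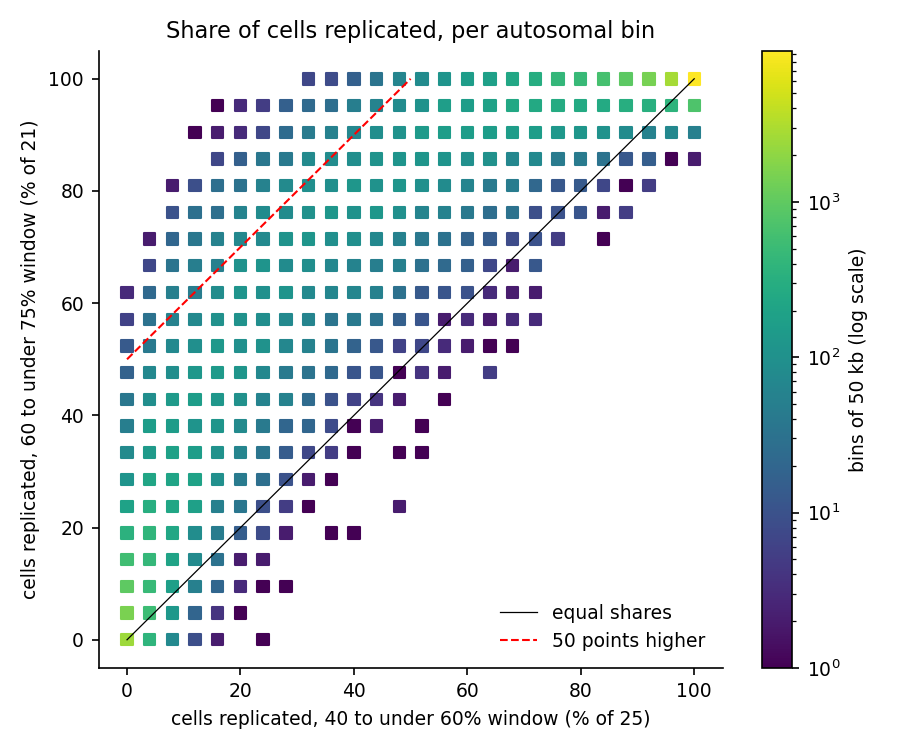
Share of the 21 later cells in which a bin was replicated, in %, against the share of the 25 earlier cells, for 45112 autosomal bins. Each square is a pair of shares coloured by its number of bins on a log scale, and the dashed line marks a rise of 50 points. The 1557 gaining bins lie on or above the dashed line, and 2217 bins lie below the line of equal shares.

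Per cell, the share of gaining bins replicated separated the windows by construction. It ran from 5.46% to 43.7% with a median of 24.8% in the earlier cells, and from 69.8% to 96.1% with a median of 79.6% in the later cells. The smoothed score of the same bins is a centered and scaled copy number value without a unit, and it was the input from which the authors made the states. Its mean was -0.43 ± 0.08 (SD, n = 25) in the earlier cells and 0.02 ± 0.09 (SD, n = 21) in the later cells. The difference of 0.45 became 0.29 when each chromosome was centered in each cell.

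In haploid cells outside both windows, most gaining bins were unreplicated under 40% and replicated at 75% or more. In the 11 haploid cells under 40%, 7.11% ± 4.55 of the gaining bins were replicated, with a highest cell of 17.6%. Over all bins the value was 31.6% ± 5.03. In the 18 cells at 75% or more, 94.4% ± 4.09 of the gaining bins were replicated, with a lowest cell of 85.999%. Over all bins it was 81.9% ± 3.95. Of the 1557 gaining bins, 734 (47.1%) were replicated in no cell under 40%, against 34.9996% of all bins. In every cell at 75% or more, 682 (43.8%) were replicated, against 47.8% of all bins.

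In the diploid line the same bins moved less. The bins had been chosen for large rises between the haploid windows. A smaller rise in cells outside that choice does not by itself mark a difference between the lines. Over 46 diploid cells with 40% to under 60% of bins replicated, 38.1% ± 12.1 of the gaining bins were replicated, and over 12 diploid cells with 60% to under 75% it was 64.4% ± 7.54. The diploid cells came through narrower sorting gates, and their windows were closer together, with 53.6% and 62.6% of all bins replicated on average against 53.5% and 67.9% in the haploid windows. Any rise between the diploid windows was seen in 1428 gaining bins (91.7%), against 67.4% of all bins. A rise of at least 50 points between them was seen in 164 gaining bins (10.5%), against 1.68% of all bins.

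The diploid cells also gave a schedule that did not use the haploid states. Bins were ranked by their mean smoothed score over the 63 diploid cells from 0, the earliest, to 100, the latest. The gaining bins had a median rank of 60.3, with the middle 50% of them between 52.3 and 66.4. Already replicated bins had a median rank of 18.5 and still unreplicated bins one of 90.03. In steps of 10 ranks, 35.9% of the gaining bins lay between 60 and 70 and 29.2% between 50 and 60. The share replicated in those steps went from 25.5% to 57.1% and from 49.6% to 79.9%. In the earliest step it went from 98.3% to 99.7%, with 1 gaining bin, and in the latest from 2.27% to 8.11%, with no gaining bin.

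Cell-to-cell disagreement moved to later DNA while its mean level changed little. Disagreement of a bin was the share of pairs of cells in a window with different states, which follows from the share of cells replicated and is highest where that share is near 50%. Its mean over bins was 18.03% in the earlier cells, over 300 pairs, and 16.4% in the later cells, over 210 pairs. Averaged per cell, disagreement with the other cells of the window ran from 16.6% to 20.5% with a median of 17.8% among the earlier cells and from 15.4% to 17.5% with a median of 16.4% among the later cells. The ranges overlapped, and 15 of the 21 later cells lay below every earlier cell. The difference of 1.61 points (later minus earlier, -1.61) was not stable. It was -0.46 with narrower windows, 0.0949 within plate row E and 4.28 when a smoothed score above 0 replaced the state. The score is centered in each cell, so a cut at 0 need not mark the same state in cells of different progress. Of 14 alternatives, 11 stayed within the spread over cells, 1 moved further and 2 changed sign.

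The windows differ in width, so pairs of cells within 1 percentage point of progress were also compared. They disagreed at 17.3% of bins over 29 pairs of earlier cells and at 15.8% over 37 pairs of later cells. The most similar pair of all disagreed at 14.9% of bins among earlier cells and at 12.8% among later cells, so no 2 cells were near copies of each other. Pairs of 1 earlier and 1 later cell disagreed at 21.2% of bins.

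The position of disagreement along the schedule changed more than its level. It was highest between ranks 50 and 60 among the earlier cells, at 41.9%, and between ranks 60 and 70 among the later cells, at 39.7%. Between ranks 30 and 40 it went from 19.9% to 5.67%, and between ranks 80 and 90 from 8.58% to 23.1%. Bins with disagreement of at least 40% numbered 9165 in the earlier cells and 8204 in the later cells. The 2407 bins on both lists made up 26.3% of the first and 29.3% of the second. The median schedule rank was 53.2 over the list of the earlier cells and 68.3 over that of the later cells. Bins on which all cells of a window had the same state rose from 36.8% to 44.8% of all bins. The later window held fewer cells over a narrower range of progress, which by itself favours full agreement.

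**Figure D3:**
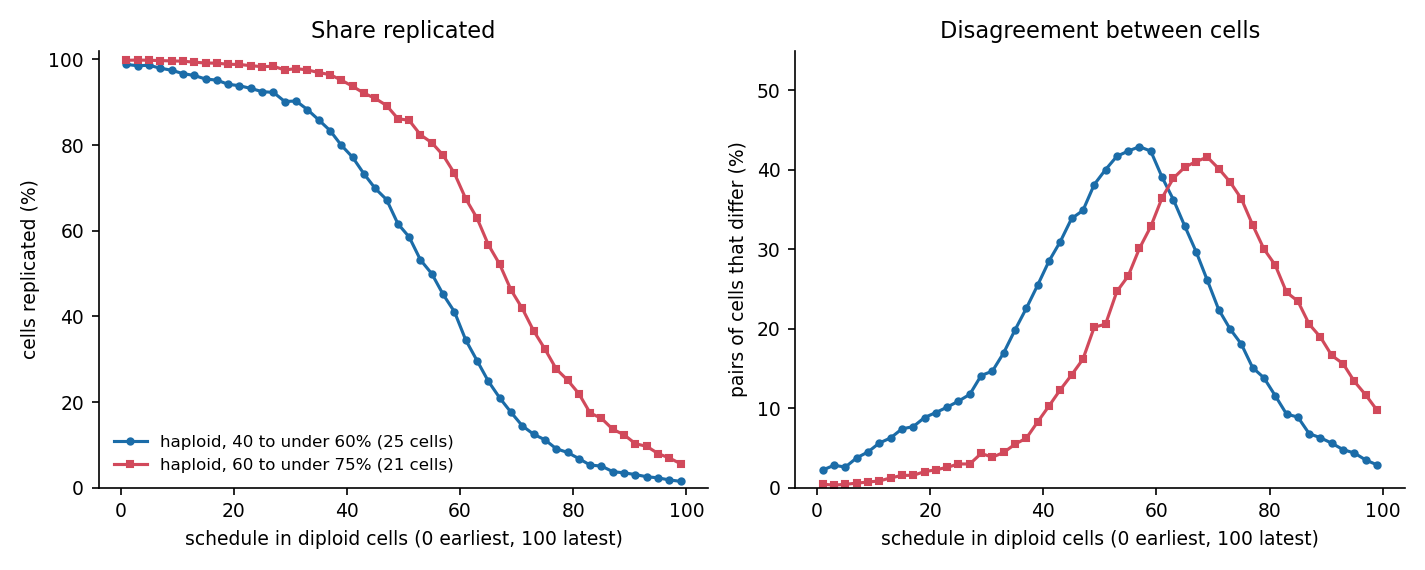
Share of haploid cells replicated (left, %) and share of pairs of cells with different states (right, %) against the schedule rank of a bin in the 63 diploid cells, where 0 is earliest and 100 latest. Points are means over bins in steps of 2 ranks for the 25 earlier and 21 later cells. The peak of disagreement lies between ranks 50 and 60 in the earlier cells and between 60 and 70 in the later cells.

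Among chromosomes, gaining bins made up from 2.24% of bins on chromosome 5 to 5.21% on chromosome 18 and 5.07% on chromosome 9. Chromosome 13 had the largest mean rise, 17.8 points, and the largest fall in disagreement, from 23.9% to 18.5%. Chromosome 3 was the only autosome where mean disagreement was higher in the later cells, at 19.5% against 18.7%. It was also the chromosome with the lowest share replicated in both windows, 39.7% and 55.1%. The gene-rich chromosome 11 had the highest, 71.3% and 82.6%, and the lowest disagreement, 13.5% and 10.8%.

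Most newly replicated DNA of the later cells adjoined DNA that most earlier cells had already copied. A consensus of the earlier cells took a bin as replicated where at least 50% of them had replicated it, which held for 24752 of 46743 autosomal bins with a state (52.95%) in 536 runs. In a later cell, 16.2% of bins on average were replicated beyond this consensus. Of these bins, 82.5% ± 3.46 (SD, n = 21) lay in runs that touched consensus replicated DNA, with a lowest cell of 76.1%, a median of 82.1% and a highest of 90.5%. Runs joined to it on both sides held 26.7% ± 4.22 of the new bins and runs joined on 1 side held 55.8% ± 2.75. Isolated runs held the other 17.5% ± 3.46.

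Single earlier cells also differ from their own consensus, and gave the background for this measure. They had replicated 6.33% of bins beyond it, of which 76.3% ± 7.90 (SD, n = 25) lay in runs that touched consensus DNA. The consensus was built from these same cells. All 21 later cells lay inside the range of the earlier cells, 61.6% to 91.6%, so touching as such did not separate the windows. Runs joined on both sides held 15.3% ± 4.84 of the new bins in earlier cells, with a range of 7.75% to 26.6%, against 20.4% to 37.4% in later cells. Of the 21 later cells, 10 lay above every earlier cell and 11 inside their range. The numbers of such runs, 49.1 per earlier and 145 per later cell, follow the number of new bins, which the choice of windows sets. Their share was not compared at equal numbers of new bins, so it cannot be separated from that choice. Isolated runs numbered 52.3 and 77.9, with 19 of 21 later cells inside the range of the earlier cells.

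The share replicated fell with distance from the consensus border. In consensus unreplicated domains of 2.5 Mb or longer, bins 50 kb from the border were replicated in 43.9% ± 12.7 of earlier cells' bins and 78.96% ± 8.15 of later cells' bins. At 200 kb the values were 25.9% ± 10.9 and 61.9% ± 11.9, and at 500 kb 10.01% ± 5.16 and 30.9% ± 10.7. At 1000 kb they were 6.50% ± 3.08 and 18.3% ± 6.81. The value of the later cells at 200 kb thus lay above that of the earlier cells at 50 kb. The consensus was built from these same earlier cells, so every bin in its unreplicated domains was under 50% in them by definition. The later cells were chosen for more replicated bins, so higher values in them follow from the choice.

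**Figure D4:**
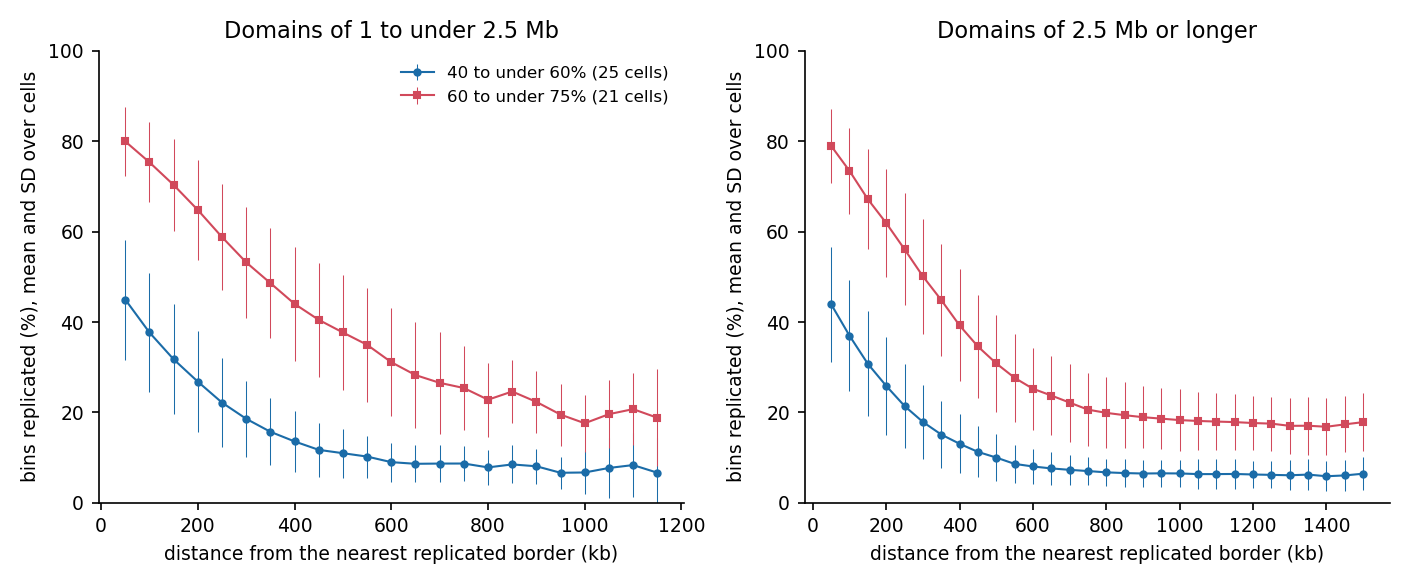
Bins replicated (%) against distance in kb from the nearest border of the consensus replicated DNA, in consensus unreplicated domains of 1 to under 2.5 Mb (left) and 2.5 Mb or longer (right). Points are means over the 25 earlier and 21 later cells and bars are the SD over cells. At 50 kb in the longer domains the means are 43.9% and 78.96%, and both curves flatten towards the interior.

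Short unreplicated domains were completed in more of the later cells than long domains were. The domains were defined from the consensus of the earlier cells, and the later cells were chosen for more replicated bins. A rise between the windows follows from both. Of 138 consensus unreplicated domains of 250 to under 1000 kb, 24.4% ± 12.04 were wholly replicated in an earlier cell and 67.1% ± 12.3 in a later cell. In the 18 cells at 75% or more, which lie outside both windows, this was 91.5% ± 4.75. For 166 domains of 1000 to under 2500 kb the values were 2.65% ± 2.20, 20.8% ± 10.3 and 66.1% ± 16.1. For 106 domains of 2500 to under 5000 kb they were 0.226% ± 0.411, 2.25% ± 1.85 and 21.6% ± 11.5.

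The 51 domains of 5000 kb or longer were wholly replicated in 0% of the cases in earlier cells and 0.0934% in later cells. In part they were replicated in 76.3% and 97.1% of the cases. Domains with no replicated bin fell at every length, for 250 to under 1000 kb from 41.9% to 8.76% and for 5000 kb or longer from 23.7% to 2.80%.

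Neighbouring gaining bins were joined into 430 regions, of which 147 were single bins and 29 were 500 kb or longer. The 29 long regions lay on 16 chromosomes and held 382 gaining bins (24.5%). Taking each long region in each cell, 12.4% of the 725 cases in earlier cells were replicated whole, 58.8% not at all and 28.8% in part. In later cells 70.9% of 609 cases were replicated whole, 7.55% not at all and 21.5% in part. The profiles were smoothed and segmented over neighbouring windows before the states were made, and the regions were chosen as unbroken runs of gaining bins. Both favour 1 state throughout a region in a given cell.

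The 8 long regions with the largest mean rise are given with the protein-coding genes that start in them. Coordinates are those of mm10, counted from 1. The first, chr12:77600001-78400000, holds the start of Gphn, which encodes gephyrin, the scaffold that anchors glycine and GABA receptors at inhibitory synapses. It was replicated in 26.8% of earlier and 91.7% of later cells on average over its bins. Whole copies were found in 5 of 25 earlier and 18 of 21 later cells. The second, chr11:7350001-8050000, has no protein-coding gene start and went from 32.6% to 97.3%, with 20 of 21 later cells replicated whole. The third, chr9:52350001-53000000, holds AI593442 and went from 16.9% to 79.5%.

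The next regions lie on chromosome 18. The fourth, chr18:5050001-5700000, holds Zfp438, a zinc finger gene, and Zeb1, a transcription factor of epithelial to mesenchymal transition, and went from 23.4% to 85.7%. It was already replicated in 83.6% of the chromosome copies of the 46 diploid cells at 40% to under 60%. In that window the lines differed most here among the 8 regions. The fifth, chr18:53600001-54300000, holds Cep120, a centriole gene, and Csnk1g3, a casein kinase, and went from 19.1% to 81.3%. It had values of 60.5% and 54.8% in the diploid windows and was the only region of the 8 without a higher value in the later diploid cells.

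The sixth region, chr2:61250001-62050000, holds Tank, Psmd14, Tbr1 and Slc4a10 and went from 17.3% to 78.6%. Psmd14 is a deubiquitinase of the proteasome and Tbr1 a T-box factor of cortical neurons. The seventh, chr10:115750001-116350000, holds the tetraspanin gene Tspan8 and the receptor phosphatase genes Ptprr and Ptprb, and went from 33.3% to 94.4%. The eighth, chr2:79300001-79900000, holds Neurod1, a basic helix-loop-helix factor of neurons and endocrine cells, with Cerkl, Itprid2 and Ppp1r1c. It was the latest of the 8 in the diploid schedule, at rank 67.1, and went from 8.67% to 69.4%. The longest of all 29 regions, 950 kb at chr9:68250001-69200000, holds the start of the nuclear receptor gene Rora, went from 28.2% to 87.5%, and is named after its values were seen.

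**Figure D5:**
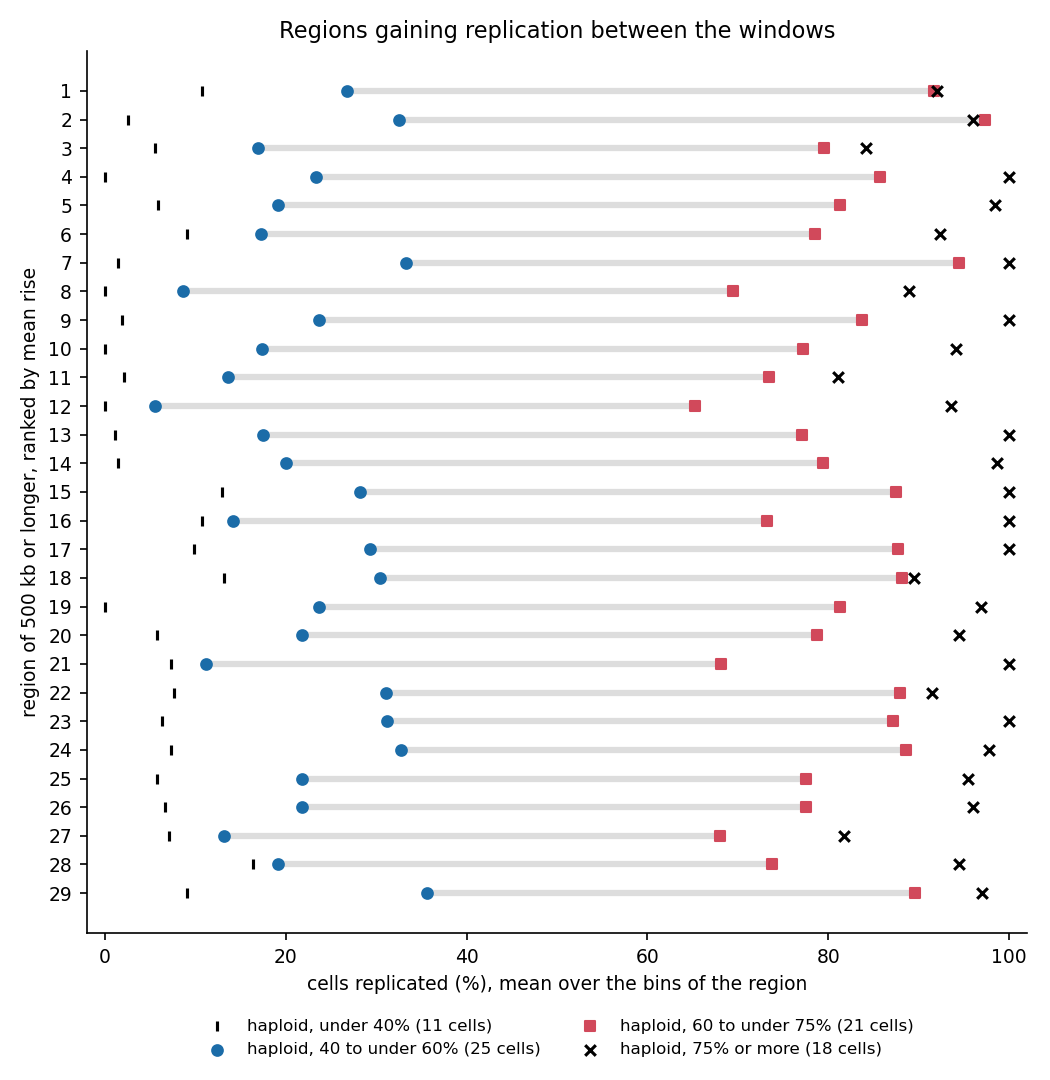
Share of cells replicated (%), averaged over the bins of each of the 29 gaining regions of 500 kb or longer, ranked by mean rise. Circles are the 25 earlier and squares the 21 later cells, and ticks and crosses are the 11 cells under 40% and 18 cells at 75% or more, which did not choose the regions. In region 2 the later cells, at 97.3%, lay close to the cells at 75% or more, at 96.03%.

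Genes were placed by the bin of their annotated start, which 19318 protein-coding genes had among the used bins. Gaining bins held 317 of these starts (1.64%), already replicated bins 12778 (66.1%) and still unreplicated bins 427 (2.21%). The state describes the DNA at the gene and not its expression. Counts for each list are set beside these shares.

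Genes of the embryonic stem cell state were replicated in most earlier cells. Of 24 pluripotency genes, 22 (91.7%) lay in already replicated bins, beside 66.1% of all gene starts, and none in gaining bins. The largest rises were Tet2, a methylcytosine dioxygenase, from 80% to 100% of cells, and Tbx3, a T-box factor, from 88% to 100%. Replication factors were alike, with 31 of 37 (83.8%) already replicated and none gaining. Of the other 6, the largest rises were Cdc7, the kinase that triggers origin firing, at 56% and 95.2%, Rpa3, a subunit of the single-strand binding protein RPA, at 64% and 95.2%, and the DNA ligase gene Lig1, at 76% and 95.2%. Orc4, a subunit of the origin recognition complex, was at 40% and 57.1%. Of 74 ribosomal protein genes 62 (83.8%) were already replicated, and Rpl15 was the single gaining gene, at 44% and 100%.

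Of 20 neural regulators, 7 (35%) were already replicated, 3 (15%) were still unreplicated and 2 (10%) were gaining. Over all gene starts these shares were 66.1%, 2.21% and 1.64%. The gaining genes were Neurod1, at 12% of earlier and 71.4% of later cells, and Emx2, a homeobox gene of the forebrain, at 16% and 66.7%. Olig2 and Otx2, also neural regulators, were replicated in 100% of cells in both windows. Of 22 mesoderm and endoderm regulators, 14 (63.6%) were already replicated and none gaining, beside 66.1% of all gene starts already replicated. T (brachyury), a factor of the primitive streak, lay just under the limit at 36% and 85.7%, and Gata6, a factor of endoderm, was at 48% and 90.5%. All 39 Hox genes lay in 13 bins, with 30 genes (76.9%) already replicated and none gaining, and the Hoxd genes with the largest rise went from 56% to 85.7%.

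Of 39 glutamate and GABA receptor genes, 14 (35.9%) were already replicated, 8 (20.5%) still unreplicated and none gaining. Over all gene starts 66.1% were already replicated, 2.21% still unreplicated and 1.64% gaining. Grik1, a kainate receptor subunit, was replicated in 0% of earlier and 42.9% of later cells. Gabrb2, a GABA receptor subunit, was at 8% and 0%. Of 17 classical cadherins, 3 (17.6%) were already replicated and 6 (35.3%) still unreplicated, and Cdh7 was at 0% in both windows. Kcnmb2 was the single gaining gene of 91 potassium channel genes (1.10%), at 24% and 85.7%, and 48 of the list (52.7%) were already replicated. Zinc finger genes named Zfp had 265 of 330 (80.3%) already replicated and 3 (0.909%) gaining, Zfp474, Zfp521 and Zfp438, all on chromosome 18.

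Of 1020 olfactory receptor genes, the longest list, 34 (3.33%) were gaining, beside 3.45% of all bins and 1.64% of all gene starts, and 180 (17.6%) were already replicated. Olfr351, Olfr352, Olfr353 and Olfr354 were at 24% of earlier and 85.7% of later cells, and the 1020 genes share 526 bins. Of 200 vomeronasal receptor genes, 4 (2%) were gaining, among them Vmn2r19 and Vmn2r25, at 40% and 100%. Of 41 beta-defensin genes, 2 (4.88%) were gaining, Defb9 and Defb10, at 40% and 90.5% in the same bin. These families hold near-identical copies whose reads cannot always be told apart, so their values are uncertain.

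Genes of 500 kb or longer were a list chosen after values were seen. Of 212 such genes, 7 (3.30%) were gaining, beside 3.45% of all bins and 1.64% of all gene starts. Already replicated were 26 (12.3%) and still unreplicated 50 (23.6%), beside 66.1% and 2.21% of all gene starts. Their median share was 30% in the earlier and 61.9% in the later cells.

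A few bins ran the other way. Lower shares by at least 10 points were seen in 59 bins (0.131%) and by at least 20 points in 4 bins. The largest drop lay at chr17:20750001-20900000, over the vomeronasal receptor genes Vmn1r228, Vmn1r229 and Vmn1r230, where the share went from 48% to 26.98%. The diploid windows had 6.52% and 13.9% there. The second, chr12:113750001-113900000, holds no protein-coding gene start and went from 42.7% to 23.8%. In the diploid windows it had 84.8% and 83.3%. The fourth, chr3:81000001-81300000, holds the start of Pdgfc, a platelet-derived growth factor, went from 62.7% to 46.8% and was the longest of these stretches. It rose from 39.5% to 58.3% between the diploid windows. The genes of these stretches are named after their values were seen.

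The gaining bins were intermediate in sequence too. Their G and C content was 41.2% ± 2.35 (SD over bins), against 45.5% ± 3.59 in already replicated, 37.7% ± 1.69 in still unreplicated and 41.98% ± 4.07 in all bins. Protein-coding gene starts numbered 4.07 per Mb in gaining bins, 16.8 in already replicated, 1.25 in still unreplicated and 8.58 in all bins. Other bins within the middle 90% of the gaining bins' schedule ranks had a G and C content of 41.2% and 6.12 gene starts per Mb. Over this span of ranks the G and C content was thus alike, and gene starts were fewer in the gaining bins. The other bins were not matched to the gaining bins rank by rank. They were replicated in 45.6% of earlier cells, against 24.8% for the gaining bins. The difference in gene starts is thus not one at equal timing.

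Promoters of the 3 classes differed in the same order. CG dinucleotides, searched as the letters CG, which read the same on both strands, were counted in the 250 bases before the RefSeq start of 14660 genes matched by symbol. At least 10 were found in 44.7% of the 228 promoters in gaining bins, 63.2% of those in already replicated bins, 21.9% of those in still unreplicated bins and 55.3% of all. At least 1 was found in 93.7% of all. Promoters of 3 genes from the 8 leading regions are shown as examples of the gaining class. For contrast, 1 gene replicated in every cell and 1 gene replicated in no cell of either window are added. They are written 5′ to 3′ on the strand of the gene from GRCm38.p6, with each CG in capitals.

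Gphn lies at chr12:78226405-78226654 on the plus strand, Neurod1 at chr2:79456637-79456886 on the minus strand and Tspan8 at chr10:115817034-115817283 on the plus strand. Otx2, replicated in every cell of both windows, lies at chr14:48667645-48667894 on the minus strand and Cdh7, replicated in none, at chr1:109982650-109982899 on the plus strand. Bins were assigned by GENCODE starts, which differ from these RefSeq starts. The stretches of Gphn, Tspan8, Otx2 and Cdh7 lie inside their GENCODE genes, and that of Neurod1 lies there in part.
Gphn: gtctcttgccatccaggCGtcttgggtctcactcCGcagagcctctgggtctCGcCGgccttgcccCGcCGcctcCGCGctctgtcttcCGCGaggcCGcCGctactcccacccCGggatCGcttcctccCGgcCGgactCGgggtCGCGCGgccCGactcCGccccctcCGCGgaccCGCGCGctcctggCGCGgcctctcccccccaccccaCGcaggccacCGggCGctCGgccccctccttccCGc
Neurod1: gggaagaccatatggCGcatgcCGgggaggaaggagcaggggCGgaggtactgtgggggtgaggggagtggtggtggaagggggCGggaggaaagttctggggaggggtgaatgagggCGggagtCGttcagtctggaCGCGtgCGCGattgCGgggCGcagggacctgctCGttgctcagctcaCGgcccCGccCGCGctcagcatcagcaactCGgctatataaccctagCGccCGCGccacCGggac
Tspan8: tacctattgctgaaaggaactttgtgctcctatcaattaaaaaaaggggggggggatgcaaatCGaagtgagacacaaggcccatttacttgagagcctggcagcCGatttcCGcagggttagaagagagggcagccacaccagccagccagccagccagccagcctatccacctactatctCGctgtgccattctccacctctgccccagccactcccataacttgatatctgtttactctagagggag
Otx2: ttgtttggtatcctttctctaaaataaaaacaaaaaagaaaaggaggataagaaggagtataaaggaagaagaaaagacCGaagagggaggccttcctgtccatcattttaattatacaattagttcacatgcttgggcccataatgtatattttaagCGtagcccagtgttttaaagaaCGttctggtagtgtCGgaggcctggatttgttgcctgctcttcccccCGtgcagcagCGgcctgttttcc
Cdh7: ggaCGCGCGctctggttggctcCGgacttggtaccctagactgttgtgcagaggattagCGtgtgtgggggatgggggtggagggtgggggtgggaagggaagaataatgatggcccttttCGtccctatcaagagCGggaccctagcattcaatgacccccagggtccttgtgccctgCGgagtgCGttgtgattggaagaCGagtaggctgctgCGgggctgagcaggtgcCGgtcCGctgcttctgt

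The Gphn promoter holds 34 CG dinucleotides and that of Neurod1 22, whereas that of Tspan8 holds 4. The Otx2 promoter, in a bin that all 46 cells had replicated, holds 6, and the Cdh7 promoter, in a bin that none had replicated, holds 13. These promoters were picked as examples and do not represent their classes, and their counts did not follow the order of the classes.

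Plate position was the only technical grouping in the labels. Of the earlier cells, 2, 5, 5, 7, 4 and 2 lay in plate rows A to F, and of the later cells 0, 5, 3, 1, 4 and 8, so row D held mostly earlier and row F mostly later cells. In rows B, C and E, with at least 3 cells of both windows, the difference in replicated segments (later minus earlier) was -68, -50.9 and -36 per cell. The difference in median length was 590, 580 and 556 kb in these rows. The share of new bins in runs that touched consensus DNA was 82.8%, 82.8% and 81.8% in the same rows, and 82.5% over all cells.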

How the data were processed

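Single nuclei were sorted by DNA content, and their genomes were amplified and sequenced. Per the study's methods, the authors aligned reads to mm10 with Bowtie 2, counted them in 50 kb windows, divided by G1 and G2 control cells, masked extreme windows, and centered, scaled and smoothed each cell. The deposited smoothed values are a score without a unit. The authors then segmented each profile and deposited binarized states, 0 for unreplicated and 1 for replicated bins, which are not copy numbers. A region that segmentation or masking misplaces changes segment number and length directly. Depth per cell is unknown, so no counting interval is given.

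Columns were matched to labelled cells by plate well, and 24 columns that matched no labelled sample were not used. Of 52685 bins, 46743 autosomal bins had a state, and 45112 also had a score in 50% or more of the haploid and of the diploid cells. Segments were counted over the former, bins over the latter. The cells, limits and gene lists were chosen with earlier results of these data known. Genes named are those that start in the 8 gaining regions of at least 500 kb with the largest mean rise, at most 6 each, and from each list up to 4 members with the largest and 2 with the smallest rise. A gene that this rule names is not reported here. Genes are protein-coding GENCODE genes on the same assembly. Each window counts as 1 sample, so no test was made. Scripts used Python 3.11.15, numpy 2.4.6 and pandas 2.3.3 and were tested on simulated data. Alternatives changed the rise limit, bins, windows, segment rules, consensus limit, schedule and plate rows.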

Additional observations from a re-analysis of the deposited data

How the results depend on the processing

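Over 89 alternative values of 7 results, 76 stayed within the spread or within 1.5 times the count, 11 moved further and 2 changed sign. The spread was the SD over cells, except for the schedule rank, where it was the SD over gaining bins, 11.9 ranks. Segment number (-84.4 to -36 per cell, later minus earlier), the share of new bins touching consensus DNA (81.3% to 83.5%) and the schedule rank of the gaining bins (57.6 to 60.7) did not move further than the spread under any alternative. The count of gaining bins was 4397 at a rise of at least 40 points, 342 at 60 points and 513 with a score above 0 as the state, against 1557. Within plate rows B, C and E, with 3 to 5 cells a window, it was 3520, 3790 and 8064. The difference in disagreement was -0.46 points with narrower windows of 14 and 16 cells, 0.0949 within row E and 4.28 with a score above 0. The score is centered in each cell, so its 0 is not a fixed state. The difference in segment length was 1101 kb by the mean and 2051 kb by the N50, against 650 kb by the median. The difference in score of the gaining bins was 0.45, 0.29 with each chromosome centered and 0.55 within row B. No paired analysis was possible because plate wells name cells without pairing them across windows. Cells without a named culture do not show how far cultures differ, and the unknown depth limits what a state at a single bin can carry. Why these values moved was not tested.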
